A study of Bos taurus with 35 samples.

Results

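Omental (O) fat was compared with intramuscular (I) fat inside the same animals, in 16 of the 34 libraries whose count tables were read. They are the O and I libraries of the 8 Hanwoo cattle that had both. The count of each library came from its own table, and O and I were paired through the animal number in the labels. Hanwoo is the Korean native breed, kept for marbled beef, and every animal was labelled as 30 months old and from one experimental station. By the labels, 3 of the 8 animals were female, 3 were castrated males and 2 were males. The methods of the study, by contrast, call the animals steers. Each library came from bulk mRNA of one piece of tissue. The O fat was taken along the stomach and the I fat was dissected from the rib cut, so any muscle fibres left on it were sequenced with it. The animals are called animal 1 to animal 8 here. The I library of a ninth animal was not analysed here, so that animal was left out of the comparison. Subcutaneous (S) fat of the same 8 animals and 8 muscle libraries were read for levels. Classes by muscle level and 1 alternative fit used all 9 S libraries.

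Fat cells of every depot store triglyceride, yet depots arise from different parts of the embryo and keep transcription factors that mark where they lie. Omental fat hangs in the abdominal cavity, where it serves as a large energy store and holds many immune cells. Intramuscular fat, the marbling of beef, lies between bundles of muscle fibres and is laid down late in growth.

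The tables paired the counts with Ensembl gene identifiers, and 31 of these could be given a symbol, from the primer list of the study. They are 29 genes that the study had picked for PCR and the reference genes GAPDH and ACTB. All other genes are described by counts and sizes of change. The I and O genes of that list had been selected on these same libraries, with the O and I comparison among the criteria, so their direction is no independent evidence. The 9 genes picked for S alone were selected on S against the other depots.

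Depth was similar in both depots. The O libraries held 4187267 to 6141691 counts on genes, with a median of 5464389.5, and the I libraries held 4363871 to 6505720, with a median of 5757418. Levels are given below as CPM, the usual unit of gene counts relative to library size, after TMM scaling. Few markers could set both depots apart from muscle. Both markers below had been picked for I with O and I compared, so their difference between these depots checks no label. FASN, the fatty acid synthase, had 1155 to 5090.4 CPM in O and 217 to 1470 CPM in I, against 49.2 to 123 CPM in muscle. TPM2, a tropomyosin of muscle fibres, had 21907 to 51134 CPM in muscle, 839 to 2023 CPM in I and 102 to 247 CPM in O.

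The I library of animal 5, labelled 28271, lay far from the other I libraries. Its root mean square distance from the mean of the other 7 I libraries, over the genes tested, was 1.08 on the log2 CPM scale. For the remaining I libraries this distance was 0.447 to 0.567, and for the O libraries it was 0.349 to 0.629, the lowest being the O library of the same animal 5. In the I library of animal 5, 1482 genes were more than 2-fold below every other I library and 365 genes were more than 2-fold above every one. No other I library had more than 47 genes below or 119 above by this measure. In the same library 15.4% of the counted alignments were set aside as not unique, against 8.22% to 13.1% in the other I libraries and 6.79% to 9.70% in O. Whether this share has a part in the distance was not tested. Results are therefore given with this library, and without it where that changes them.

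**Figure D1:**
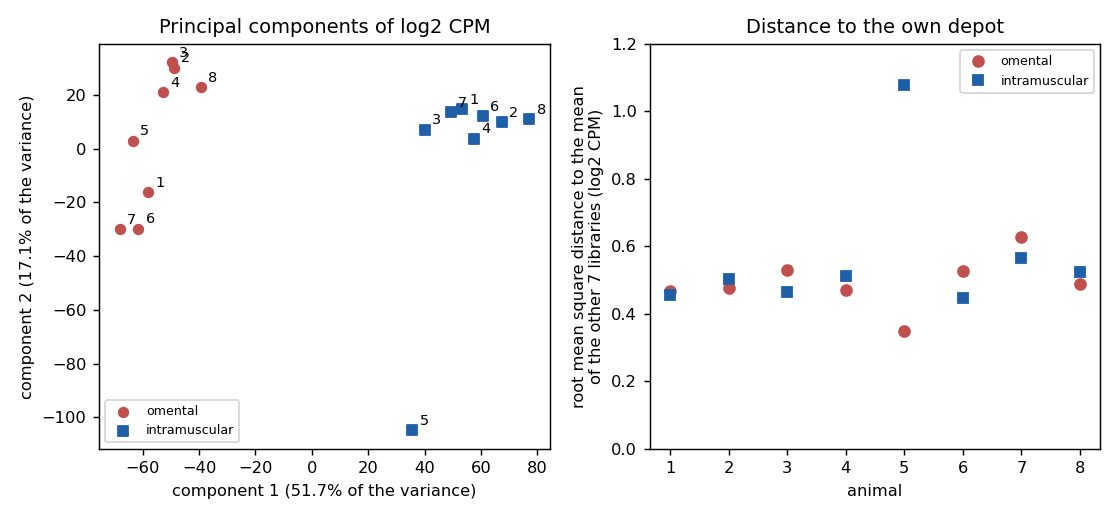
The left panel plots the 16 libraries on the first and second principal component of log2 CPM over the genes tested, numbered by animal, with O as circles and I as squares. The right panel plots for each animal the root mean square distance of its O and I library from the mean of the other 7 libraries of that depot (log2 CPM). Component 1 separated the depots, and the I library of animal 5 stood alone on component 2 at -105 and at a distance of 1.08.

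To find how far the transcriptomes of O and I fat differ within an animal, each gene was tested with the animal as a term in the model. Of 24596 genes in the tables, 13075 passed a filter on low counts and were tested. At a false discovery rate (FDR) under 0.01 by the edgeR quasi-likelihood test, 4065 genes (31.1% of those tested) were differentially expressed (DEGs). The DEGs were split almost evenly, with 2012 genes (15.4%) higher in O and 2053 genes (15.7%) higher in I. Without the I library of animal 5, 4976 of 13182 genes (37.7%) were DEGs, 2435 higher in O and 2541 higher in I. Of the 4065 DEGs, 3926 were called again without that library and each kept its direction, while 138 were called only with it. A further 982 genes tested in both fits were DEGs only without it.

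The even split depended on scaling. TMM gave the O libraries factors of 0.994 to 1.13 and the I libraries 0.888 to 0.992. With library totals alone there were 4839 DEGs, and O was the higher depot in 3334 (68.9%), against 49.5% with TMM. The median log2 fold change of all genes tested (O minus I, as throughout) was 0.04 with TMM and 0.23 without it. Fold changes below are relative to the TMM scale.

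On the TMM scale the changes were larger on the I side. At 4-fold and above, this was less so among genes under 2-fold higher in muscle than in S fat (below). TMM shifted the median log2 fold change over the genes tested by -0.19, toward I, so the sizes on both sides depend on it. The median absolute log2 fold change over the genes tested was 0.43. Among DEGs, the median log2 fold change was 0.96 for genes higher in O and 1.21 in absolute size for genes higher in I. At least 2-fold changes were found for 950 DEGs higher in O and 1256 higher in I. At least 4-fold changes were found for 221 and 454 DEGs. At least 16-fold changes were found for 19 and 121 DEGs. Conversely, 509 DEGs differed by less than 1.5-fold, and the smallest change called was 0.34 on the log2 scale. Another 257 genes were fitted at more than 2-fold and were not called.

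DEGs took up a large share of the RNA. The genes higher in I held 31.1% to 39.0% of all gene counts in the I libraries, with a median of 34.9%, and 13.9% to 18.0% in the O libraries, with a median of 15.6%. The genes higher in O held 18.0% to 24.4% of the counts in O, with a median of 21.6%, and 6.10% to 11.1% in I, with a median of 9.04%. In neither set did the ranges of the depots overlap, as the choice of the genes makes likely.

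The share of DEGs went up with abundance. Among 1655 genes with a mean below 30 counts per library, 26.8% were DEGs, 264 higher in O and 179 higher in I. Among 1068 genes with a mean of at least 1000 counts, 46.5% were DEGs, and here those higher in I were the majority, 335 against 162. The median standard error of the log2 fold change was 0.29 in the lowest class and 0.16 in the highest, so rare genes needed larger changes to be called: the median change of a DEG was 1.62 on the log2 scale in the former and 1.06 in the latter.

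**Figure D2:**
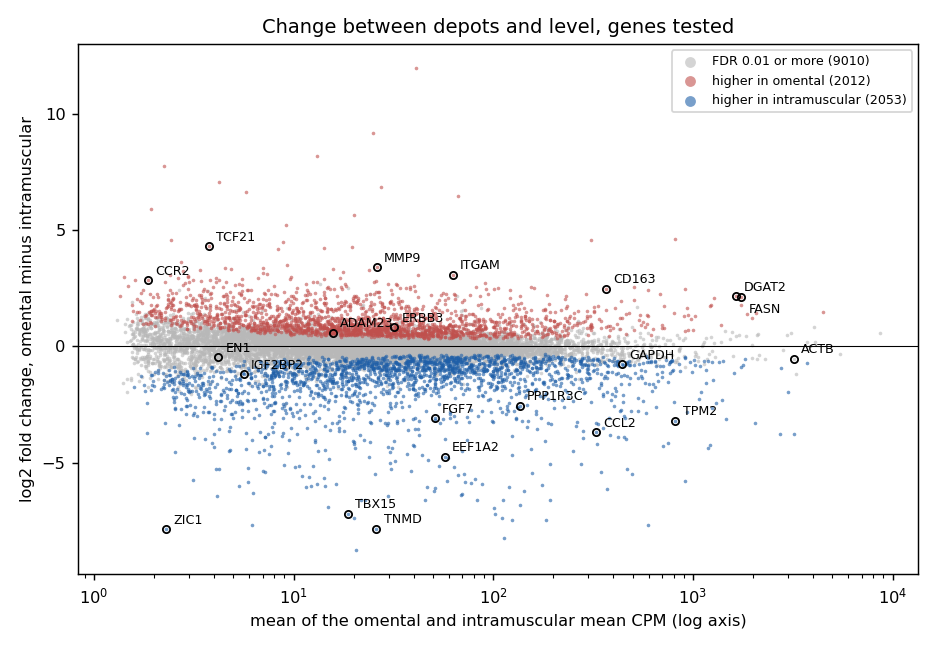
Each point is one of the 13075 genes tested, with the mean of its O and I levels in CPM on a log axis and its log2 fold change, O minus I, on the vertical axis. Red and blue points are the 2012 DEGs higher in O and the 2053 higher in I, and circles mark the named genes that passed the filter. The cloud reaches farther down than up, with 121 DEGs at least 16-fold higher in I and 19 at least 16-fold higher in O. ZIC1 had no count in O, so its fitted position depends on the prior of the fit.

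Most DEGs had one direction over the animals, as their selection by a test within the same animals makes likely. For each gene the difference of log2 CPM between O and I was taken inside each animal. Of the 4065 DEGs, 3383 (83.2%) had the same direction in 8 of 8 animals, 1693 of those higher in O and 1690 of those higher in I. One animal went against the other 7 in 668 DEGs, and 14 DEGs had 2 such animals. Of all genes tested, 4006 (30.6%) had one direction in all 8 animals, and 623 of these were not called. Large changes were hardly more uniform than small ones by this count: 85.6% of the DEGs of at least 2-fold and 80.4% of the smaller ones agreed in all 8 animals. In 562 DEGs even the animal with the weakest difference showed at least 2-fold, and 431 of these were higher in I and 131 higher in O. The levels themselves did not overlap between the 8 O and the 8 I libraries in 1572 genes (12% of those tested), with I above O in 931 and O above I in 641.

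**Figure D3:**
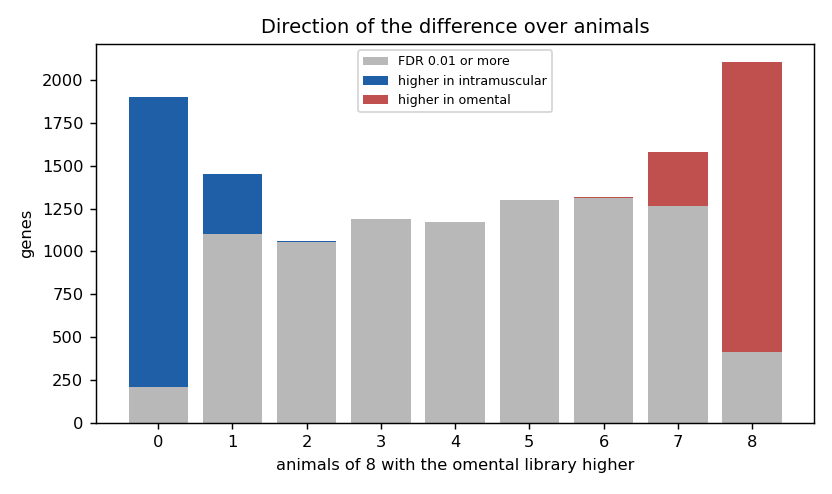
Bars count the genes tested by how many of the 8 animals had the O library higher, with DEGs higher in I in blue, DEGs higher in O in red and all others in grey. DEGs sit at the ends, as their selection makes likely, with 1690 at 0 animals and 1693 at 8 animals. The genes that were not called spread over the whole range.

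Animal 5 was the usual exception. It alone went against the other 7 animals in 297 of the 668 DEGs with 1 exception, of which 194 were higher in I. Animal 3 did so in 137 DEGs, 107 of them higher in O, animal 7 in 98, and each of the other 5 animals in 9 to 42. The difference between depots in animal 5 followed the called direction in 92.4% of the DEGs, while the other animals followed it in 96.4% to 99.8%. Across the genes tested, the differences of animal 5 correlated with the mean differences of the other 7 animals at r = 0.59, and those of the other animals at 0.75 to 0.89. These coefficients are over genes, which are not independent, and over libraries that share the animals averaged. Genes on which this I library was more than 2-fold below all other I libraries were not called in 1263 of 1482 cases (85.2%), and those more than 2-fold above were not called in 264 of 365 (72.3%), against 68.9% of all genes tested. The median SD of the 8 differences was 0.49 on the log2 scale over the genes tested, and 0.41 without animal 5.

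The size of the difference also varied between animals. The median absolute difference over the genes tested was smallest in animal 3, at 0.40 on the log2 scale, and largest in animal 5, at 0.74. The other 6 animals had 0.47 to 0.60. On a regression of an animal's differences on the mean of the others, animal 3 had the lowest slope, 0.76, followed by animal 5 with 0.80, and the other slopes were 0.93 to 1.04.

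Transcription factors that mark body position were among the most separated of the named genes. TBX15 (ENSBTAG00000007767), a T-box factor of mesenchyme known to differ between subcutaneous and visceral fat, had 0 to 0.518 CPM in O with a median of 0.224. In I it had 11.1 to 49.7 CPM with a median of 40.7. All I libraries were above all O libraries, and the log2 fold change was -7.19 ± 0.34 (SE, n = 8 animals, edgeR adjusted p = 1.87e-07). The lowest I value was that of animal 5, and the next I library had 30.8 CPM. S fat was like I fat in this gene, at 32.5 to 53.4 CPM, and muscle had 47.8 to 309 CPM.

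TCF21 (ENSBTAG00000021827), a basic helix-loop-helix factor of visceral mesenchyme, went the other way. It had 5.01 to 10.7 CPM in O with a median of 7.16, and 0 to 0.640 CPM in I with a median of 0.328. The groups did not overlap, and the log2 fold change was 4.30 ± 0.34 (SE, n = 8, edgeR adjusted p = 4.06e-06). In S fat it had at most 0.152 CPM, and no muscle library had a count.

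ZIC1 (ENSBTAG00000014751), a zinc finger factor known from neural and brown fat development, had no count in any O library. In I it had 2.03 to 7.60 CPM with a median of 4.61, which comes to 220 counts. Against a floor of 3 counts over the 8 O libraries together, this is at least 78.9-fold higher in I (edgeR adjusted p = 0.000794). S fat had 0 to 4.37 CPM and muscle 23.0 to 111 CPM, so the order was muscle, then I, then S, with S and I overlapping.

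The remaining position factors were rare or did not differ. ISL1 (ENSBTAG00000001241), a LIM homeodomain factor, did not pass the filter on low counts. It had 0.303 to 6.33 CPM in O and 0 to 0.175 CPM in I, with 91 counts against 2, a ratio of 42.3 with an exact 95% counting interval of 11.4 to 355. It was higher in O in 8 of 8 animals (edgeR adjusted p = 3.36e-05 without the filter, a fit in which 23% of 19571 genes were called). LHX8 (ENSBTAG00000019192), another LIM homeodomain factor, had no count in O and 30 counts in I, 15 of them in one library, and 4 of the 8 I libraries had none. Its adjusted p without the filter was 0.0166, which misses the threshold. EN1 (ENSBTAG00000021494), an engrailed homeobox factor, had 0.754 to 8.46 CPM in O and 0.845 to 6.82 CPM in I. The ranges lay over each other, 4 animals were higher in each direction, and the log2 fold change of -0.46 ± 0.37 (SE, n = 8) had an edgeR adjusted p of 0.337. TBX5 (ENSBTAG00000011384), a T-box factor of heart and forelimb, had 2 counts in each depot. EN1, LHX8 and TBX5 had been picked for S, where they reached 19.7 to 34.5, 0.656 to 6.86 and 0.480 to 2.89 CPM.

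FASN and DGAT2 were higher in O, and MFSD2A was higher in I. FASN (ENSBTAG00000015980), which makes palmitate, had a median of 2694 CPM in O and of 599 CPM in I. The ranges overlapped at the edge, and O was higher in 8 of 8 animals, by 0.67 to 3.30 on the log2 scale. Its log2 fold change was 2.15 ± 0.28 (SE, n = 8, edgeR adjusted p = 0.000121). DGAT2 (ENSBTAG00000001154), the enzyme of the last step of triglyceride synthesis, had 1449 to 4419 CPM in O with a median of 2447, and 182 to 1373 CPM in I with a median of 629. Here no I library reached the lowest O library, and the log2 fold change was 2.16 ± 0.32 (SE, n = 8, edgeR adjusted p = 0.000298). In animal 3 the difference of DGAT2 was only 0.08 on the log2 scale, and that of FASN was also the smallest of the 8. S fat had higher medians than O for both, 4127 CPM for FASN and 3128 CPM for DGAT2, with overlapping ranges. MFSD2A (ENSBTAG00000013054), a transporter of lysophospholipids, did not pass the filter. It had 0 to 0.686 CPM in O and 0.476 to 7.65 CPM in I. On CPM it was higher in I in 8 of 8 animals, but animal 5 had 4 counts in each depot. The log2 fold change was -3.10 ± 0.54 (SE, n = 8, edgeR adjusted p = 0.000571 without the filter).

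Of the immune genes of the list, CD163, ITGAM, MMP9 and CCR2 were higher in O, while CCL2 and SLPI were higher in I. CD163 (ENSBTAG00000019669), the haemoglobin scavenger receptor of macrophages, had 295 to 960 CPM in O with a median of 629, and 57.8 to 190 CPM in I with a median of 109. The groups did not overlap, and the difference ran from 2.04 to 3.49 on the log2 scale over the 8 animals. The log2 fold change was 2.49 ± 0.17 (SE, n = 8, edgeR adjusted p = 1.75e-06). ITGAM (ENSBTAG00000047238), an integrin subunit of myeloid cells, had 43.3 to 221 CPM in O and 6.25 to 20.7 CPM in I, again without overlap (log2 fold change 3.10 ± 0.36, SE, n = 8, edgeR adjusted p = 5.49e-05). In bulk tissue, fewer cells of a type and less RNA per cell cannot be told apart.

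MMP9 (ENSBTAG00000020676), a gelatinase of neutrophils and macrophages, was the most variable of these genes. It had 8.71 to 135 CPM in O with a median of 34.0, and 0.369 to 18.3 CPM in I with a median of 2.80. The ranges overlapped because of animal 5, whose I library had the 18.3 CPM while no other I library had more than 4.92 CPM. The difference was above 0 in 8 of 8 animals and ran from 0.82 to 7.59 on the log2 scale, with a log2 fold change of 3.40 ± 0.65 (SE, n = 8, edgeR adjusted p = 0.00153). CCR2 (ENSBTAG00000013586), the receptor of CCL2 on monocytes, had 1.37 to 5.49 CPM in O and 0 to 1.85 CPM in I, with a log2 fold change of 2.85 ± 0.59 (SE, n = 8, edgeR adjusted p = 0.00238). Animals 6 and 7 held 10 and 6 of its 22 counts in I, and without animal 6 the log2 fold change was 3.49.

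CCL2 (ENSBTAG00000037811), which draws monocytes into tissue, had 18.8 to 124 CPM in O with a median of 44.1, and 257 to 864 CPM in I with a median of 627. All I libraries exceeded all O libraries, and the log2 fold change was -3.70 ± 0.36 (SE, n = 8, edgeR adjusted p = 1.72e-05). The ligand and its receptor thus lay on opposite sides, each in 8 of 8 animals. S fat, at 17.2 to 138 CPM, and muscle, at 10.4 to 44.9 CPM, both stayed below the I libraries for CCL2. SLPI (ENSBTAG00000004148), a secreted inhibitor of leukocyte proteases, did not pass the filter, with 4 counts in O and 36 in I over all libraries. It was higher in I in 8 of 8 animals (log2 fold change -3.16 ± 0.67, SE, n = 8, edgeR adjusted p = 0.00244 without the filter).

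TPM2, EEF1A2 and DUSP27, which had their highest levels in muscle, were higher in I. TPM2 (ENSBTAG00000011424) had a median of 156 CPM in O and of 1454 CPM in I. The groups did not overlap, and the log2 fold change was -3.19 ± 0.23 (SE, n = 8, edgeR adjusted p = 2.31e-06). EEF1A2 (ENSBTAG00000021685), the elongation factor form of muscle and neurons, had 0.910 to 5.56 CPM in O and 19.4 to 226 CPM in I, against 2639 to 5696 CPM in muscle. It had been picked for S, and its log2 fold change between O and I was -4.75 ± 0.43 (SE, n = 8, edgeR adjusted p = 1.09e-05). DUSP27 (ENSBTAG00000008652), a phosphatase family member of striated muscle, had 1 count in all O libraries together and 449 in I. The ratio was 483 with an exact 95% counting interval of 86.2 to 19114, and muscle had 410 to 814 CPM against 1.05 to 25.8 CPM in I.

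For TNMD and PPP1R3C, muscle did not lie above I. TNMD (ENSBTAG00000021059), tenomodulin of tendon that fat cells can also make, had 0 to 0.691 CPM in O and 6.90 to 143 CPM in I with a median of 39.9. Muscle had only 0.283 to 6.83 CPM and S fat at most 1.52 CPM, so the I libraries were above the O and S libraries of these animals and above the muscle libraries. Its log2 fold change was -7.84 ± 0.48 (SE, n = 8, edgeR adjusted p = 1.01e-06), and -8.46 without animal 6. PPP1R3C (ENSBTAG00000014831), which brings protein phosphatase 1 to glycogen, had 28.9 to 53.5 CPM in O and 98.4 to 452 CPM in I, with a log2 fold change of -2.54 ± 0.22 (SE, n = 8, edgeR adjusted p = 6.88e-06). Muscle, at 103 to 369 CPM, overlapped with I in this gene, and S fat, at 26.5 to 64.2 CPM, overlapped with O.

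FGF7 was higher in I and BDNF in O. FGF7 (ENSBTAG00000004013), a growth factor that mesenchymal cells send to epithelia, had 5.61 to 16.2 CPM in O with a median of 11.5, and 52.4 to 114 CPM in I with a median of 91.7. The groups did not overlap (log2 fold change -3.10 ± 0.26, SE, n = 8, edgeR adjusted p = 7.01e-06). BDNF (ENSBTAG00000008134), a neurotrophin, did not pass the filter and had 168 counts in O against 3 in I, a ratio of 52.1 with an exact 95% counting interval of 17.5 to 255. It was higher in O in 8 of 8 animals (edgeR adjusted p = 8.75e-06 without the filter), although the lowest O library had a single count.

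ERBB3 and ADAM23 differed in direction between animals. ERBB3 (ENSBTAG00000010444), a receptor of neuregulins, had 3.19 to 86.1 CPM in O and 5.79 to 128 CPM in I. It was higher in O in 6 animals, by up to 3.03 on the log2 scale, and the difference was -5.18 in animal 7, whose libraries held both the lowest O value and the highest I value. The log2 fold change of 0.82 ± 0.72 (SE, n = 8) had an edgeR adjusted p of 0.383. ADAM23 (ENSBTAG00000019694), a membrane protein of the disintegrin family, had 5.47 to 26.8 CPM in O and 3.64 to 48.9 CPM in I, the highest I value again in animal 7. O was higher in 5 of 8 animals (log2 fold change 0.59 ± 0.45, SE, n = 8, edgeR adjusted p = 0.311). Both had been picked for low levels in S, where they had at most 7.63 and 2.69 CPM.

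UCP1 (ENSBTAG00000004647), the uncoupling protein of brown fat, had few counts. It had 0.152 to 5.27 CPM in O and 0 to 0.640 CPM in I, or 82 counts against 14. On CPM, O was higher in 8 of 8 animals, although by less than 0.1 on the log2 scale in animals 1 and 7. In counts, animal 1 had 4 in O and 3 in I, and animal 7 had 1 in each. The log2 fold change was 2.14 ± 0.50 (SE, n = 8, edgeR adjusted p = 0.00451 without the filter). Without the I library of animal 5 the adjusted p was 0.0107, which misses the threshold.

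IGF2BP2 (ENSBTAG00000007666), a protein that binds growth factor mRNA, depended on single animals. It had 1.76 to 5.15 CPM in O and 0.727 to 15.3 CPM in I, and was higher in I in 7 of 8 animals. The exception was animal 5, whose I library had the 0.727 CPM. The log2 fold change was -1.18 ± 0.31 (SE, n = 8, edgeR adjusted p = 0.00968) and -1.41 ± 0.23 without that library (edgeR adjusted p = 0.000616). Leaving out any single one of the other 7 animals, by contrast, raised the adjusted p to between 0.0119 and 0.0341.

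STRA6 (ENSBTAG00000007348), the receptor of retinol binding protein, and CYP17A1 (ENSBTAG00000014335), a steroid hydroxylase, did not pass the filter and did not differ detectably. STRA6 had 0.345 to 13.0 CPM in O and 0.145 to 4.80 CPM in I (edgeR adjusted p = 0.788 without the filter), with 5 animals higher in O and 3 in I. CYP17A1 had 0.144 to 1.78 CPM in O and 0.457 to 2.10 CPM in I (edgeR adjusted p = 0.333 without the filter), far below the 3.92 to 31.6 CPM of S fat. Both had been picked for S.

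**Figure D4:**
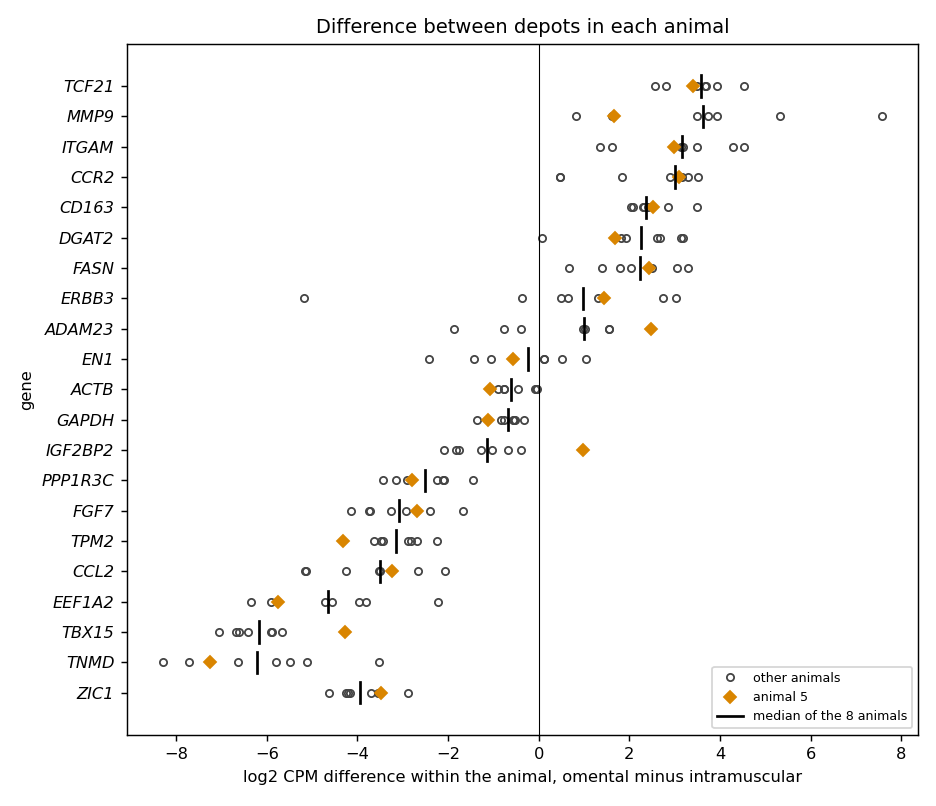
For each named gene that passed the filter, points give the difference of log2 CPM between O and I inside each animal, with animal 5 as an orange diamond, the other 7 animals as open circles and the median of the 8 as a bar. Genes are ordered by the fitted log2 fold change. EN1, ADAM23, ERBB3 and IGF2BP2 have animals on both sides of 0, and for IGF2BP2 animal 5 is the only one above 0.

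Of the reference genes for PCR, GAPDH was called and ACTB was not. GAPDH (ENSBTAG00000014731), the glycolytic reference gene, had 239 to 481 CPM in O and 352 to 774 CPM in I, and was higher in I in 8 of 8 animals (log2 fold change -0.76 ± 0.13, SE, n = 8, edgeR adjusted p = 0.000782). Its direction was the same with RLE factors and with no scaling, where the log2 fold change was -0.57. Muscle had 4388 to 12786 CPM. ACTB (ENSBTAG00000026199), cytoplasmic actin, had 2095 to 3279 CPM in O and 2684 to 5354 CPM in I, the highest being animal 5. It too was higher in I in 8 of 8 animals, but its adjusted p of 0.0230 missed the threshold (log2 fold change -0.52 ± 0.17, SE, n = 8, edgeR), and without scaling the log2 fold change was -0.33.

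Of the 29 picked genes, 19 passed the filter, and 7 of these were called higher in O, 9 higher in I and 3 were not called. Of the 9 genes picked for S alone, 5 passed the filter and 2, EEF1A2 and IGF2BP2, were DEGs between O and I, both higher in I, against 31.1% over all genes tested.

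Genes without a symbol included larger changes than most of the named ones. Among DEGs with one direction in 8 of 8 animals and at least 10 CPM on average in the higher depot, ENSBTAG00000009876 and ENSBTAG00000000066 had the largest changes toward O. The former had 5.46 to 262 CPM in O and no count in any I library, which against a floor of 3 counts over the 8 I libraries is at least 1356-fold higher in O (edgeR adjusted p = 5.76e-05). ENSBTAG00000000066 had 3.64 to 105 CPM in O and 3 counts in I, a ratio of 828 with an exact 95% counting interval of 283 to 4017. Both were nearly silent outside O, with at most 0.167 CPM in S fat and 0.359 CPM in muscle.

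Toward I, ENSBTAG00000021166 had 4.76 to 70.4 CPM in I and 0 to 0.178 CPM in O, with a log2 fold change of -8.76 ± 0.32 (SE, n = 8, edgeR adjusted p = 7.58e-08). ENSBTAG00000000071 had 24.3 to 823 CPM in I and 0 to 0.888 CPM in O, with a log2 fold change of -8.25 ± 0.65 (SE, n = 8, edgeR adjusted p = 4.16e-06). In muscle, ENSBTAG00000021166 had 0.283 to 21.6 CPM with a median of 1.94, which overlapped with I, and ENSBTAG00000000071 had 0.703 to 7.19 CPM, below all I libraries. In S fat they had medians of 0.141 and 0.488 CPM, with maxima of 2.71 and 20.8 CPM.

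Muscle levels were set beside the changes, since the I fat had been cut from muscle. Genes were put into classes by their mean CPM in muscle divided by that in S fat, from libraries outside the comparison, and 3 genes with no count in either tissue had no ratio. Among 115 genes tested with a ratio of 100 or more, 100 (87%) were DEGs higher in I and 0 were higher in O, with a median log2 fold change of -3.59. The filter asked for counts in about as many libraries as one depot has. A gene of this class nearly absent from O could therefore pass only through its I level, so this share is partly set by the filter. Among 262 genes with a ratio of 10 to 100, 114 (43.5%) were higher in I and 9 were higher in O, with a median of -0.65. With a ratio of 2 to 10, 402 of 2197 genes (18.3%) were higher in I and 159 in O. Below 2, the 10498 genes leaned slightly the other way, with 1437 (13.7%) higher in I, 1841 (17.5%) higher in O and a median of 0.09.

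Of the 2053 DEGs higher in I, 1437 (70%) had a ratio under 2, against 80.3% of all genes tested. Without any gene over 10-fold higher in muscle, the fit gave 3835 DEGs, 1924 higher in O and 1911 higher in I. Of the 121 DEGs at least 16-fold higher in I, 52 (43%) had a ratio of 100 or more. Of the 454 at least 4-fold higher in I, 88 (19.4%) did. This class held 115 of the 13075 genes tested, and these shares too are partly set by the filter. Among genes with a ratio under 2, at least 4-fold changes were found for 212 DEGs higher in O and 230 higher in I. At least 16-fold changes were found there for 14 and 33 DEGs.

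The level of muscle genes differed between animals. Summed over the 115 genes, the I libraries had 4000 to 19332 CPM and the O libraries 566 to 1022 CPM. Animal 3 had the lowest I sum and animal 5 the highest, 4.43 and 34.1 times the O sum of the same animal. The median difference of these genes was -1.02 on the log2 scale in animal 3, -2.14 in animal 4 and -3.50 to -4.32 in the other 6 animals. Animal 3 was also the animal with the smallest median difference over all genes and the smallest FASN and DGAT2 differences. Its O library was, however, also the lowest O library for both genes, at 1155 and 1449 CPM. Animal 4, next to it in the muscle genes, had the largest FASN difference, 3.30, and a DGAT2 difference of 3.14. The EEF1A2 value of animal 3 in I was the lowest, but that gene is itself one of the 115. What part muscle tissue in the I samples has in any of these differences was not tested.

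**Figure D5:**
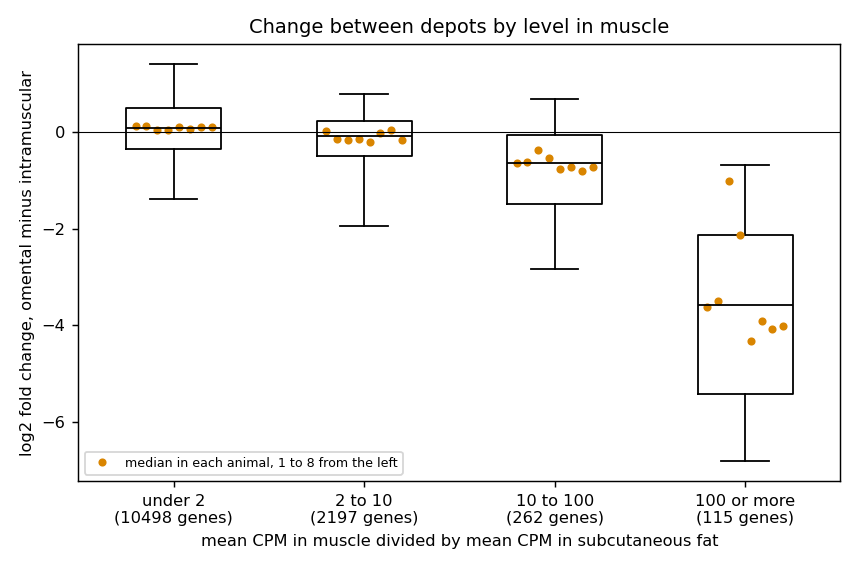
Boxes give the log2 fold change, O minus I, of the genes tested in 4 classes of the ratio of mean CPM in muscle to that in S fat (median, quartiles, whiskers at the 5th and 95th percentiles). Orange points are the medians of the differences inside each animal, in the order of animal 1 to 8. The class of 100 or more lies at a median of -3.59, with animal 3 at -1.02.

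S fat of the same animals was closer to O than to I in most DEGs. For 1740 of the 2012 genes higher in O (86.5%) and 1871 of the 2053 higher in I (91.1%), the mean log2 CPM of S lay nearer to that of O, against 76.5% of all genes tested. For the genes higher in I with a muscle ratio under 2 the share was 88.7%. That ratio is itself taken over the S level, so this class is not independent of the closeness measured. TBX15 and ITGAM, with ranges given for O and I above, were examples of either kind: S had the TBX15 level of I, while ITGAM in S, at 21.8 to 70.8 CPM, was above all I libraries and overlapped with O.

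The labels allowed a test of whether the change between O and I differed between females, castrated males and males. No gene passed an FDR of 0.01 (0% of 13075 tested) by the edgeR quasi-likelihood test, and the lowest adjusted p was 0.856. At an unadjusted p under 0.05 there were 440 genes (3.37%). The likelihood ratio test of edgeR also called 0 genes, with a lowest adjusted p of 0.0192 and 709 genes at an unadjusted p under 0.05. This does not show that the classes were alike, and the classes rest on labels that the methods of the study do not match. In simulated data the quasi-likelihood test recovered 0 of 196 genes changed by 2 on the log2 scale in females alone.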

How the data were processed

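The deposited files hold raw read counts per Ensembl gene, 1 table per library. Per the labels, libraries were made with an Illumina TruSeq kit, and the submitters' processing notes name FastQC, TopHat2 2.0.2 and HTSeq 0.5.3p3. Per the methods of the study, mRNA was selected with oligo-dT. Lines that name no gene held 66.3% to 71.1% of the counts of each library compared, mostly reads outside genes, and were left out. Strand use in counting is not given in the sources used here, so overlapping and antisense genes cannot be told apart.

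Counts were fitted in edgeR 4.0.16 (R 4.3.3, limma 3.58.1) with animal and depot as terms, TMM factors, filterByExpr with a count minimum of 10, the quasi-likelihood test and Benjamini-Hochberg adjustment over all genes tested, at an FDR of 0.01. SEs were derived from each fold change and its F statistic. Differences inside animals were taken on log2 CPM (prior count 2). Genes that failed the filter were read from the same fit without it. Counting intervals are exact binomial (95%) and, like floors, cover counting error only. The interaction of sex class and depot was tested in the same way. Animals pair the libraries by design. Deviations from the depot means correlated within animals at a median of 0.12 (0.052 to 0.482), against -0.016 between animals. No pair of libraries of a depot agreed within sampling noise. Both tests were run on simulated data. The depot test recovered 54 of 96 changes of 1 on the log2 scale and 89 of 93 changes of 2. The sex class test recovered 0 of 196 changes of 2 and 170 of 194 changes of 4, each simulated in females alone.

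The alternatives were no animal term, the likelihood ratio test, DESeq2 1.42.0, RLE factors, no scaling, other filters, other thresholds, a fit with S libraries, and leaving out animals or libraries. The rule named the genes of the primer list and at most 2 identifiers per direction, taken as the largest changes among DEGs of one direction in 8 animals with at least 10 CPM in the higher depot. The planned lists of pathway and marker genes were not used here, since only 31 identifiers were paired with symbols. Genes, lists and classes were chosen with earlier results of these data known.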

Additional observations from a re-analysis of the deposited data

Results flagged for a closer look

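In 103 groups of 8 values, the highest or lowest value was compared with the rest by its gap relative to the whole range (Dixon's criterion at 95%), and 13 stood apart. Chance alone marks about 1 in 20 such groups, and several of the 13 values come from the same library, so their number was not read as a result. Animal 5 stood apart in the following values. Its I library lay 1.08 from the mean of the other I libraries on the log2 CPM scale, against 0.567 for the next. The correlation of its differences over genes with those of the other animals was 0.590, against 0.754 for the next. The called direction was followed in 92.4% of the DEGs, against 96.4% for the next, and it was the lone exception in 297 DEGs, against 137 for the next. TBX15 had 11.1 CPM in the I library of this animal, against 30.8 for the next.

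Animal 7 stood apart in ERBB3, with 3.19 CPM in O against 19.1 for the next and a difference of -5.18 against -0.38. In TBX5 animal 7 had 0.303 CPM in O, which is 2 counts, while all other O libraries had 0, and a difference of 0.96 on the log2 scale. Animal 3 stood apart in EEF1A2, with 19.4 CPM in I against 72.9 for the next, in ADAM23, with 5.47 CPM in O against 13.0, and in CYP17A1, with a difference of -2.38 against -0.71. DUSP27 had a single count in O, in animal 6, which is 0.173 CPM. For TBX5 and DUSP27 in O, where all libraries but one had no count, the gap is the whole range by construction.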

How the results depend on the processing

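Of the 4065 DEGs, 3588 were among the 3894 called with no animal term, the fit with no replicate block. One fit with all 9 S libraries, which also held the O library of the ninth animal, gave 5474 DEGs. The total was 4996 by the likelihood ratio test, 5003 by DESeq2 and 4071 with RLE factors. The total was 4511 with no filter and 4285 with a filter of over 1 CPM in 8 libraries. It moved by over 1.5 times only with the thresholds, to 6116 at an FDR under 0.05 (3170 higher in O) and 2206 at a 2-fold minimum (950 higher in O, 1256 higher in I, 1889 with one direction in all animals). With no scaling 3334 were higher in O. With no filter, 177 genes of the highest muscle class were higher in I, since more such genes were tested, and their share of the class is not given here. Leaving out each animal gave 3060 to 4918 DEGs, the highest without animal 5, with 1446 to 2407 higher in O, 1614 to 2511 higher in I, 2812 to 4466 of one direction in the remaining animals, and 93 to 114 of the highest muscle class higher in I. S was closer to O in 87.4% to 90.2% of DEGs in these fits. Leaving out each muscle library, an alternative chosen after seeing the data, gave 99 to 101 such genes. No setting gave a call for the sex classes.

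Of 613 values of the named genes, 584 kept their direction and side of the threshold. TBX5 reversed to 0.00397 with no scaling, 0.581 without the I library of animal 5, 0.51 without animal 4 and 0.578 without animal 5, and was lowest, at -1.62, without animal 7. STRA6 reversed to -0.0673, -0.0405, -0.23 and -0.0845 without the I library of animal 5, animal 2, animal 3 and animal 5, and was highest, at 0.821, without animal 6. Neither was called in any setting. UCP1 was not called with no replicate block (edgeR adjusted p = 0.0156), nor without animal 2, 3, 5 or 8 (0.0112 to 0.0344). IGF2BP2 was not called with no scaling (0.0258). LHX8 was called by the likelihood ratio test (2.12e-06) and with the S libraries (0.00523), and ACTB by the likelihood ratio test (0.00501) and DESeq2 (0.00191). The cause of these shifts was not tested. At 4187267 to 6505720 counts per library, genes below about 1 CPM rest on a few counts each.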
